A study of Mus musculus with 24 samples.

Results

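The 42 genes described here encode proteins of mitosis. They build the centromere and kinetochore, run the spindle assembly checkpoint, move chromosomes on the spindle, divide the cell or shape mitotic chromosomes. They were chosen by symbol from a list drawn up with earlier results of these data known. The RNA of these genes was followed through the fractions of mouse cells. All 42 were found among the 29759 genes of each deposited table through their Ensembl IDs. The list has 10 roles: 2 genes of the chromosome surface and DNA untangling, 4 of the centromere and inner kinetochore, 2 of the fibrous corona, 4 of the outer kinetochore, 6 of the checkpoint, 3 of the chromosomal passenger complex, 2 mitotic kinases, 10 kinesins, 5 of the spindle and cytokinesis, and 4 of condensin.

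The cells were of E14, a single line of mouse embryonic stem cells, in 2 states. Epiblast-like cells (EpiLC) were taken on day 3 after a move to 20 ng/ml activin A with 12 ng/ml bFGF in N2B27 medium, by a published protocol that the submitters modified slightly. Naive embryonic stem cells (nESC) were kept in N2B27 medium with LIF and with PD0325901 and CHIR99021, inhibitors of MEK and GSK3. Both states share the E14 background, and the labels give no genotype change. RNA depleted of ribosomal RNA was sequenced from chromatin, nucleoplasm, cytoplasm and whole cells (total), with 3 libraries for each of the 8 groups. The labels do not say that replicates came from separate cultures, so the p-values measure the spread between libraries, which may be technical.

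In a dividing cell, centromeric chromatin carries the histone variant CENP-A, on which an inner and then an outer kinetochore assemble to bind microtubules. Unattached kinetochores recruit the checkpoint proteins, which hold back the ubiquitin ligase APC/C by capturing its activator CDC20. Genes of this kind are mostly transcribed in late S and G2 phase under repression by the DREAM complex in early G1, which acts through a promoter element called the cell cycle genes homology region (CHR), often beside CCAAT boxes bound by NF-Y. Embryonic stem cells divide fast and spend a large share of their time in S phase.

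Promoters of the list were read first, because this element is shared by many members and their choice did not use it. RefSeq promoter windows on GRCm38.p6, from 250 bases before to 50 bases after the start, were matched by symbol for 37 of the 42 members, without Aurkb, Incenp, Kif20a, Smc4 and Tpx2. The windows of 6 members are shown from base -120 to base -1, as examples with the element near the start and with the element further away. Capitals mark TTTGAA or TTCGAA (the CHR core) and CCAAT, on either strand, so that TTCAAA and ATTGG are their reverse complements.
Cdc20, chr4:118437344-118437463 (- strand): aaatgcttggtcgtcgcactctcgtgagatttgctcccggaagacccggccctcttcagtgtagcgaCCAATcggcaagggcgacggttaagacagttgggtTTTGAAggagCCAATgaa
Kif22, chr7:127042421-127042540 (- strand): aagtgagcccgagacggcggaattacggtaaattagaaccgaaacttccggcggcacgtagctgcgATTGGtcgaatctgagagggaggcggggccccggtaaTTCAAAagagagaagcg
Kif11, chr19:37376262-37376381 (+ strand): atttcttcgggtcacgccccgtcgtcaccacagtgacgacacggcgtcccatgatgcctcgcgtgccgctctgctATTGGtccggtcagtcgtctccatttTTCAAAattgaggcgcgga
Ncapg, chr5:45669805-45669924 (+ strand): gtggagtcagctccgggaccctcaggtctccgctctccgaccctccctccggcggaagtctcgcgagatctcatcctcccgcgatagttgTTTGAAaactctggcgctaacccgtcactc
Top2a, chr11:99024190-99024309 (- strand): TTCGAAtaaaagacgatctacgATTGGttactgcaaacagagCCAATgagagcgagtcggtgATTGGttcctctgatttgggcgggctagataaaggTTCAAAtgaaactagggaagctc
Mki67, chr7:135716380-135716499 (- strand): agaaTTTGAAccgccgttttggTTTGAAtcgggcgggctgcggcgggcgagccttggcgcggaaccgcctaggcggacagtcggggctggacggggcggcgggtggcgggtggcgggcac

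The core TTTGAA, searched on both strands, was in 28 of 37 members (75.7%), against 20.2% of 27025 genes with a window of the same length. TTTGAA or TTCGAA was in 29 of 37 members (78.4%), against 21.7% of all. Within 40 bases of the start, either core was found in 23 of 37 members (62.2%), against 4.96% of all. CCAAT was in 26 of 37 members (70.3%), against 41.1%, and at least 2 CCAAT boxes were in 16 members (43.2%), against 13.3%. The E2F sequence TTCCCGC was in 4 members (10.8%), against 5.29%. These are matches of letters in a window, which show no binding. TTTGAA and TTCGAA cannot match at the same bases, and overlap with CCAAT or TTCCCGC was not removed.

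The deposited values are FPKM, fragments scaled to exon length and to library size. How the library size was set is not given in the sources used here. Sums of FPKM ran from 432706 in EpiLC chromatin library 2 to 1980223 in nESC cytoplasm library 1. Low values step in whole fragments, which put 30.8 to 47.9 fragments behind 1 FPKM in a 2 kb transcript in chromatin libraries, 69.0 to 92.3 in nucleoplasm, 24.2 to 44.8 in cytoplasm and 64.7 to 85.2 in total RNA. The least covered member values were those of Knl1 in nESC cytoplasm, with an estimated 32 to 80 fragments. The fractions followed their labels: Malat1, a nuclear noncoding RNA, had 5549, 4519.8 and 3565 FPKM in EpiLC chromatin, against 157, 191 and 315 FPKM in EpiLC cytoplasm, and Rplp1, a ribosomal protein gene, had 494, 495 and 1348 FPKM in EpiLC chromatin, against 16650.1, 17296 and 14991 FPKM in EpiLC cytoplasm. EpiLC cytoplasm library 3 was highest of its group for Malat1, and EpiLC chromatin library 3 for Rplp1, so calls that change without these libraries are given. Malat1 is listed at 0 in nESC nucleoplasm library 3, while no member is listed at 0 in any library. Neat1, another nuclear RNA, and Gapdh, a glycolysis gene, also followed the fractions, with chromatin above cytoplasm for Neat1 and below it for Gapdh in every library of both states. The states followed their labels too: Nanog, a naive pluripotency gene, had 14.3, 13.5 and 14.9 FPKM in EpiLC total RNA, against 274, 277 and 279.8 FPKM in nESC total RNA, and Fgf5, a gene of the formative epiblast, had 55.02, 52.5 and 55.1 FPKM in EpiLC total RNA, against 0.0348, 0.0655 and 0.0657 FPKM in nESC total RNA. The 6 fibroblast and feeder genes summed to 60.3 to 64.0 FPKM in EpiLC total RNA, against 268.5 to 289.7 FPKM in nESC total RNA, with 2 of 6 at 1 FPKM or more in each state. Vim made most of this sum, with 52.2, 55.6 and 50.4 FPKM in EpiLC total RNA, against 268, 286 and 278 FPKM in nESC total RNA, while Thy1 went the other way, with 7.51, 6.63 and 7.82 FPKM in EpiLC total RNA, against 0.337, 0.680 and 1.59 FPKM in nESC total RNA, and the other 4 genes were at 2.65 FPKM or less in every total library. The 3 mesoderm genes summed to 0.435 to 0.957 FPKM in EpiLC total RNA, against 11.8 to 13.4 FPKM in nESC total RNA, with 0 of 3 and 1 of 3 at 1 FPKM or more. Their part in any result was not tested. The 7 primitive endoderm genes were all under 1 FPKM in total RNA of both states. The 4 trophectoderm genes summed to 14.8 to 15.1 FPKM in EpiLC total RNA, against 16.6 to 17.5 FPKM in nESC total RNA, mostly from Krt8. Cdx2 had 0.0705, 0.0876 and 0.0331 FPKM in EpiLC total RNA, against 1.15, 1.50 and 1.23 FPKM in nESC total RNA. The 3 neural genes, mostly Nes, summed to 18.7 to 20.6 FPKM in EpiLC total RNA, against 9.57 to 10.25 FPKM in nESC total RNA. What these genes add to any result was not tested.

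All 42 genes were expressed in both states. In total RNA their group means ran between 8.89 FPKM for Kif14 and 357 FPKM in EpiLC and between 7.45 FPKM for Kif14 and 389.8 FPKM in nESC. Top2a, the topoisomerase that untangles sister DNA, was the highest in both states. It had 359, 353 and 359.7 FPKM in EpiLC total RNA, against 385, 393 and 391 FPKM in nESC total RNA. Together, the 42 genes took 0.310% to 0.313% of all FPKM in EpiLC total RNA, against 0.261% to 0.279% in nESC total RNA. By fraction, their share was lowest in cytoplasm. It was 0.409% to 0.634% in EpiLC chromatin, 0.417% to 0.438% in EpiLC nucleoplasm and 0.126% to 0.141% in EpiLC cytoplasm. In nESC it was 0.467% to 0.584% in chromatin, 0.254% to 0.286% in nucleoplasm and 0.0819% to 0.0891% in cytoplasm. In both states the cytoplasm libraries lay below every library of the other 3 kinds.

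The 2 tables were normalized separately, so the levels of EpiLC and nESC are compared without a test. In total RNA the median member differed little, at a log2 difference (EpiLC over nESC) of -0.11, beside -0.01 over 11704 genes. Of the 42 members, 16 were above 0. With every library scaled to one sum 29 were above 0, at a median of 0.11 beside 0.20 over all genes, so the sign depends on the scaling. In bulk RNA, a difference in the share of cells in mitosis and a difference in RNA per cell cannot be told apart. The largest differences of members in total RNA were those of Plk1, the kinase of mitotic entry and centrosome maturation, Incenp (0.96) and Mki67 (0.91) on the EpiLC side and Ndc80 (-0.69) on the nESC side. Plk1 had 63.0, 62.2 and 63.9 FPKM in EpiLC, against 30.5, 31.1 and 30.9 FPKM in nESC, and Ndc80, the microtubule-binding subunit of the outer kinetochore, had 28.7, 24.8 and 27.0 FPKM in EpiLC, against 43.6, 43.1 and 43.6 FPKM in nESC. The libraries of the states do not overlap for either gene. Plk1 was the only member at least 2-fold higher in EpiLC total RNA (log2 difference 1.02), and no member was at least 2-fold higher in nESC total RNA, where 13.3% and 10.4% of all genes passed that fold in the 2 directions.

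The nucleoplasm differed more in the median. There the median member stood at a log2 difference of 0.71, beside 0.12 over all genes, and 40 of 42 members were above 0, all but Cenpa (-0.29) and Kif14 (-0.03). At least 2-fold differences were not more common in members: 4 were higher in EpiLC nucleoplasm and 0 in nESC nucleoplasm. Over all genes 11% and 9.61% passed that fold. The share of all genes above 0 is not given here for any fraction. In chromatin the median member stood at -0.12, beside -0.02, with 18 of 42 above 0. In cytoplasm it stood at 0.35, beside 0.14, with 36 of 42 above 0. Scaling to one sum gave 0.66, -0.06 and 0.51 for the median member in nucleoplasm, chromatin and cytoplasm. Cdc20, the APC/C activator, shows the pattern by library: 228, 229.7 and 257 FPKM in EpiLC nucleoplasm, against 109, 105 and 98.1 FPKM in nESC nucleoplasm, but 73.3, 80.8 and 77.8 FPKM in EpiLC chromatin, against 75.1, 69.1 and 63.5 FPKM in nESC chromatin. Its nucleoplasm libraries do not overlap between the states, and its chromatin libraries do.

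**Figure D1:**
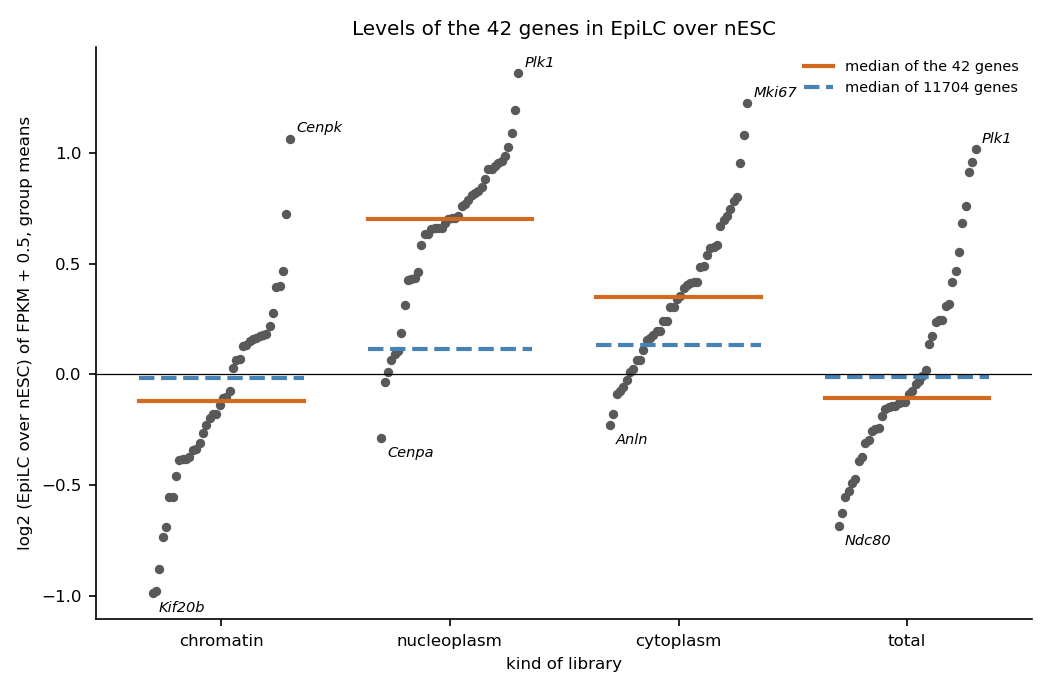
Each point is 1 of the 42 genes, ordered by value within each kind of library (x axis), and the y axis is the log2 difference of group means, EpiLC over nESC, with no test. The solid line, the median of the 42 genes, lies at 0.71 in nucleoplasm and within 0.36 of 0 in the other kinds, and the dashed line is the median of 11704 genes. Scaling to one sum turns the median in total RNA to 0.11.

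Chromatin was compared with cytoplasm within each state with limma on log2(FPKM + 0.5), and a gene was called at an adjusted p under 0.05 with a fold of at least 2. In EpiLC 22 of 42 members (52.4%) were called higher in chromatin and 10 (23.8%) lower, where 29.1% of 12834 genes were called higher and 28.4% lower (57.6% in all). In nESC 22 of 42 members (52.4%) were called higher and 7 (16.7%) lower, where 31.8% of 12592 genes were called higher and 29.7% lower (61.5% in all). Members had a median log2 fold of 1.11 in EpiLC and 1.27 in nESC, beside -0.001 and 0.04 over all genes. Of the members called higher, 21 were called so in both states, and all 7 called lower in nESC were also called lower in EpiLC. No member was called in opposite directions. The list was chosen with earlier results of these data known, so the shares of members beside those of all genes are a description. Fold directions are those of the deposited FPKM: with every library scaled to one sum the median of all genes moved to 1.69 in EpiLC and 1.85 in nESC, and no member was called lower in chromatin, so higher and lower are read here against the median of all genes. Of the genes called lower, Birc5 in both states and Cdc20 in EpiLC kept a negative fold with one sum, and the others turned positive.

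**Figure D2:**
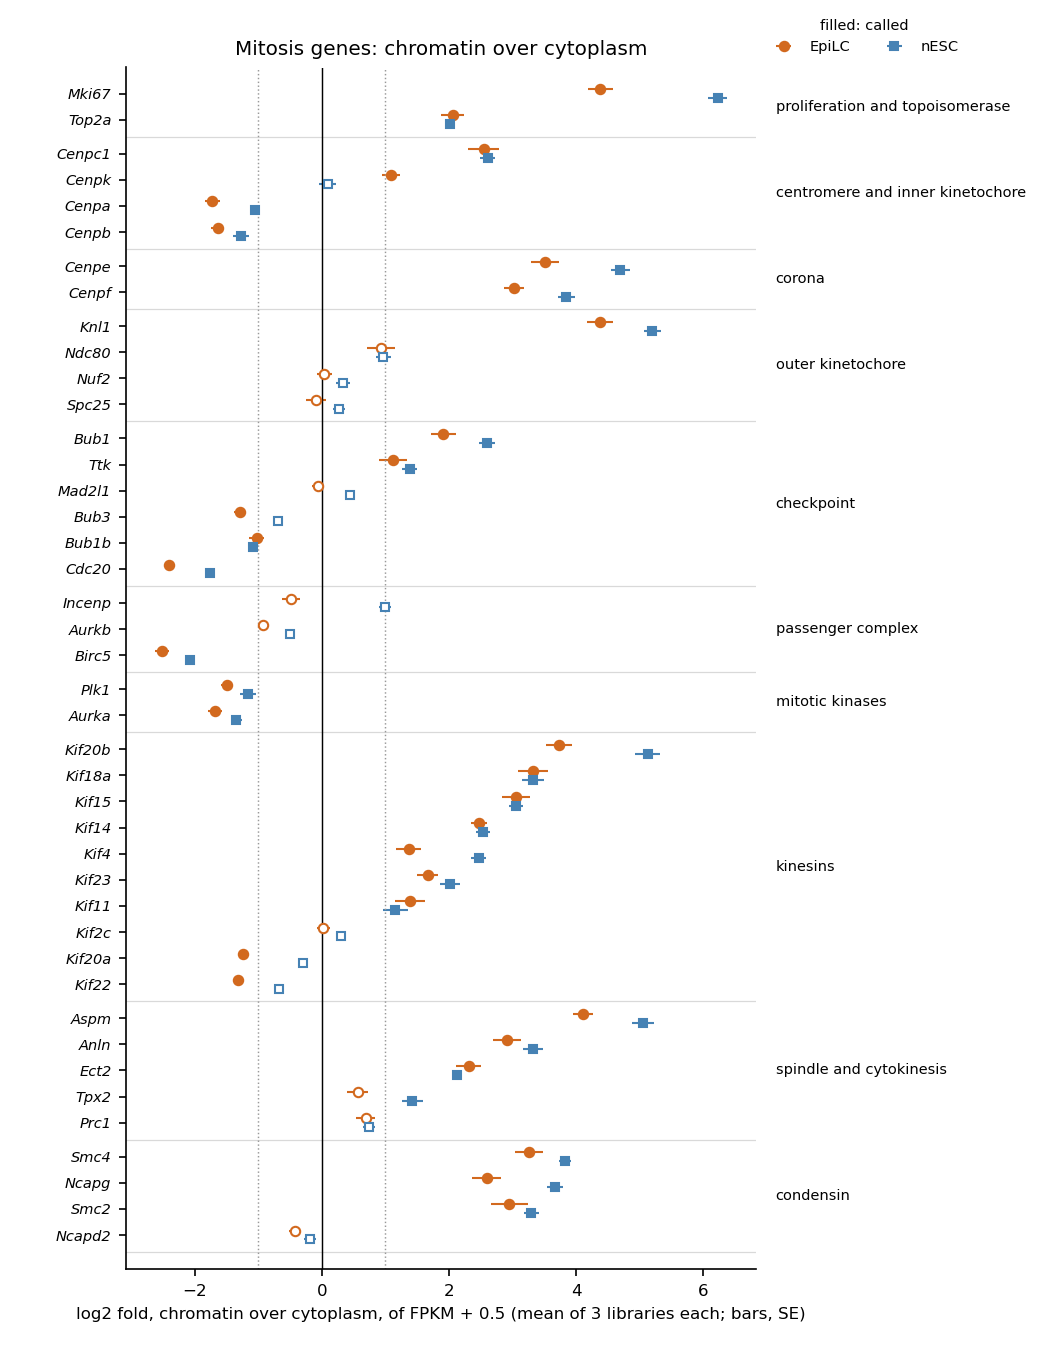
The x axis is the log2 fold of chromatin over cytoplasm on FPKM + 0.5, with the SE as a bar, for each gene (y axis) by role, circles for EpiLC and squares for nESC, filled where called. Mki67, Knl1, Cenpe, Aspm and Kif20b lie at the right, up to 6.23 for Mki67 in nESC, and Birc5, Cdc20, Aurka and Cenpb lie at the left, an order read against the median of all genes, since scaling to one sum moves that median to 1.69 in EpiLC and 1.85 in nESC.

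The largest chromatin excess belonged to Mki67, which encodes Ki-67, the protein that coats mitotic chromosomes. Mki67 had 105, 57.8 and 52.9 FPKM in EpiLC chromatin, against 2.75, 2.73 and 2.98 FPKM in EpiLC cytoplasm. It had 82.3, 120.3 and 116 FPKM in nESC chromatin, against 0.640, 1.01 and 1.11 FPKM in nESC cytoplasm. EpiLC chromatin library 1 was high beside libraries 2 and 3, and chromatin and cytoplasm did not overlap in either state. The log2 fold was 4.38 (SE 0.20, adjusted p = 7.07e-10) in EpiLC and 6.23 (SE 0.15, adjusted p = 7.59e-13) in nESC, which put Mki67 above 99.9% of all genes tested in nESC. Top2a, in the same group, had 463, 403 and 326 FPKM in EpiLC chromatin, against 80.9, 77.2 and 132 FPKM in EpiLC cytoplasm, and a smaller log2 fold of 2.06 in EpiLC and 2.02 in nESC. A snoRNA gene, Gm23451, lies on the same strand over 1.35% of the exonic bases of Top2a.

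The 4 centromere genes stood on different sides. Cenpa, the gene of the histone variant itself, had 49.5, 61.3 and 63.6 FPKM in EpiLC chromatin, against 208, 211 and 161 FPKM in EpiLC cytoplasm. In nESC the values of Cenpa were 71.6, 67.8 and 77.3 FPKM in chromatin, against 164, 145 and 144 FPKM in cytoplasm. Chromatin was below cytoplasm in every library, with a log2 fold of -1.72 (SE 0.12, adjusted p = 2.67e-08) in EpiLC and -1.06 (SE 0.072, adjusted p = 1.12e-08) in nESC, where the call was lost without nESC cytoplasm library 1. Cenpb, an intronless gene whose protein binds centromeric satellite DNA, was also called lower in chromatin in both states, at -1.64 and -1.27. Cenpc1, which links CENP-A chromatin to the outer kinetochore, went the other way. It had 38.8, 28.0 and 20.9 FPKM in EpiLC chromatin, against 3.50, 3.49 and 7.05 FPKM in EpiLC cytoplasm, and its log2 fold was 2.55 (SE 0.24, adjusted p = 5.17e-07) in EpiLC and 2.61 (SE 0.12, adjusted p = 2.34e-10) in nESC. Cenpk, a subunit of the constitutive centromere network, was called in EpiLC alone. It had 10.0035, 8.59 and 8.03 FPKM in EpiLC chromatin, against 3.56, 3.26 and 5.04 FPKM in EpiLC cytoplasm, and 3.68, 4.07 and 4.18 FPKM in nESC chromatin, against 2.98, 4.60 and 3.67 FPKM in nESC cytoplasm. The EpiLC fractions did not overlap and the nESC fractions did, with a log2 fold of 1.09 (SE 0.14, adjusted p = 8.66e-06) in EpiLC and 0.09 (SE 0.13, adjusted p = 0.506) in nESC, and without EpiLC cytoplasm library 2 the EpiLC value was 0.98 and no longer called. Exons of Cenpk share 4.45% of their bases with Ppwd1 on the opposite strand, and the use of strand in counting is not given in the sources used here.

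Both corona genes were called higher in chromatin in both states. Cenpe encodes a kinesin that carries chromosomes to the spindle equator, and it had 30.3, 18.3 and 15.4 FPKM in EpiLC chromatin, against 1.08, 1.21 and 1.81 FPKM in EpiLC cytoplasm. The nESC libraries of Cenpe had 35.2, 43.4 and 49.1 FPKM in chromatin, against 0.798, 1.39 and 1.34 FPKM in cytoplasm. Every chromatin library exceeded every cytoplasm library, and the log2 fold was 3.51 (SE 0.21, adjusted p = 8.96e-09) in EpiLC and 4.69 (SE 0.15, adjusted p = 5.71e-12) in nESC. Cenpf, a large coiled-coil protein of the corona, had log2 folds of 3.02 and 3.85. Among the outer kinetochore genes of the list, only Knl1, the scaffold that recruits the BUB proteins, passed. Knl1 had 56.9, 32.9 and 35.0 FPKM in EpiLC chromatin, against 1.20, 1.95 and 1.34 FPKM in EpiLC cytoplasm. The nESC libraries of Knl1 had 32.1, 41.0 and 38.2 FPKM in chromatin, against 0.344, 0.675 and 0.574 FPKM in cytoplasm. The groups were far apart, with a log2 fold of 4.37 (SE 0.20, adjusted p = 7.07e-10) in EpiLC and 5.20 (SE 0.14, adjusted p = 1.19e-12) in nESC. The 3 subunits of the NDC80 complex in the list did not pass: Ndc80 stood at 0.93 and 0.97, Nuf2 at 0.04 and 0.33, and Spc25 at -0.09 and 0.26 in EpiLC and nESC. Spc24, a further subunit outside the list, had 19.9, 22.1 and 30.0 FPKM in EpiLC chromatin, against 223, 230 and 191 FPKM in EpiLC cytoplasm. Its folds are given below with the other kinetochore genes. Ndc80 was near the threshold. It was called at 1.05 without EpiLC chromatin library 3, at 1.26 without EpiLC cytoplasm library 3, at 1.07 without nESC chromatin library 1 and at 1.10 without nESC cytoplasm library 2.

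The 6 checkpoint genes fell on both sides. The kinase genes Bub1 and Ttk, which start checkpoint signalling at the kinetochore, were called higher in chromatin in both states, at log2 folds of 1.91 and 1.13 in EpiLC and 2.59 and 1.38 in nESC. Ttk lost the EpiLC call at 0.96 without chromatin library 1 or cytoplasm library 2. Bub1 had 83.4, 52.5 and 49.6 FPKM in EpiLC chromatin, against 14.1, 12.8 and 21.0 FPKM in EpiLC cytoplasm. Cdc20, the target of the checkpoint, was on the opposite side. It had 73.3, 80.8 and 77.8 FPKM in EpiLC chromatin, against 410.4, 424 and 397 FPKM in EpiLC cytoplasm, and 75.1, 69.1 and 63.5 FPKM in nESC chromatin, against 243, 231 and 231 FPKM in nESC cytoplasm. Its chromatin libraries were all far below its cytoplasm libraries, with a log2 fold of -2.40 (SE 0.080, adjusted p = 9.22e-11) in EpiLC and -1.76 (SE 0.071, adjusted p = 5.47e-11) in nESC. Bub1b, the pseudokinase that binds CDC20 in the inhibitory complex, was called lower in both states at -1.02 and -1.08, close to the fold threshold, and its EpiLC value of -0.98 or -0.96 was not called without chromatin library 2 or 3 or cytoplasm library 1. Bub3, its WD-repeat partner, was called lower in EpiLC only (-1.29, against -0.68 in nESC). Mad2l1, the MAD2 protein that closes around CDC20, did not pass in either state (-0.06 in EpiLC and 0.44 in nESC). With a correction for transcript length and GC its nESC fold turned to -2.33 and was called (limma adjusted p = 6.67e-11), where its length was that of a 7557-nucleotide transcript with 6805 nucleotides of 3' untranslated region.

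Of the 3 passenger complex genes, 1 was called lower in chromatin in both states and none higher, and both mitotic kinases were called lower. Birc5 encodes survivin, which brings the passenger complex to centromeres, and it had 22.5, 24.4 and 29.8 FPKM in EpiLC chromatin, against 162, 155 and 128 FPKM in EpiLC cytoplasm. The nESC libraries of Birc5 had 32.5, 28.2 and 31.7 FPKM in chromatin, against 132, 129 and 131 FPKM in cytoplasm. The groups did not overlap, and the log2 fold of -2.52 (SE 0.11, adjusted p = 6.4e-10) in EpiLC and -2.07 (SE 0.068, adjusted p = 7.82e-12) in nESC was the lowest of the 42 genes in both states. Aurkb, the kinase of the complex, stayed inside the fold threshold at -0.93 and -0.51. Incenp, its scaffold, had 38.5, 43.0 and 27.0 FPKM in EpiLC chromatin, against 50.4, 45.8 and 53.6 FPKM in EpiLC cytoplasm, and 52.1, 48.9 and 40.1 FPKM in nESC chromatin, against 22.0, 23.6 and 24.5 FPKM in nESC cytoplasm. Chromatin was below cytoplasm in the 3 EpiLC libraries and above it in the 3 nESC libraries, with log2 folds of -0.48 (SE 0.14, adjusted p = 0.00598) in EpiLC and 0.99 (SE 0.095, adjusted p = 3.71e-07) in nESC that missed the fold threshold, and with one sum the EpiLC fold was positive at 1.34. The nESC value was called at 1.10 without chromatin library 3 and at 1.02 without cytoplasm library 3. Aurka, the centrosome and spindle kinase, and Plk1 were called lower in both states. Aurka had 45.5, 47.2 and 35.1 FPKM in EpiLC chromatin, against 140.0, 147 and 122 FPKM in EpiLC cytoplasm, a log2 fold of -1.67 (SE 0.11, adjusted p = 1.87e-08), and -1.34 in nESC. Plk1 stood at -1.50 in EpiLC and -1.16 in nESC, and 7.09% of its exonic bases lie opposite a gene named Gm44985.

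Of the 10 kinesins, 7 were called higher in chromatin in both states: Kif20b, Kif18a, Kif15, Kif14, Kif4, Kif23 and Kif11. Kif20b, a motor of late cytokinesis, led them. It had 40.8, 21.2 and 26.4 FPKM in EpiLC chromatin, against 1.58, 1.31 and 2.21 FPKM in EpiLC cytoplasm, and 41.1, 54.2 and 81.6 FPKM in nESC chromatin, against 0.845, 1.30 and 1.32 FPKM in nESC cytoplasm. Chromatin and cytoplasm lay far apart in both states, with EpiLC chromatin library 1 and nESC chromatin library 3 the highest of their groups, and the log2 fold was 3.74 (SE 0.20, adjusted p = 3.44e-09) in EpiLC and 5.12 (SE 0.19, adjusted p = 2.82e-11) in nESC. Kif18a, which aligns chromosomes by slowing microtubule plus ends, had 3.32 and 3.32. Kif15 and Kif11, the pair of motors that push spindle poles apart, had 3.05 and 1.38 in EpiLC and 3.06 and 1.16 in nESC, and Kif11 lost the nESC call at 0.95 without chromatin library 3. Kif14 and Kif23, motors of cytokinesis, had 2.48 and 1.67 in EpiLC and 2.53 and 2.02 in nESC. The chromokinesins differed: Kif4 was called higher in both states (1.36 in EpiLC and 2.46 in nESC, with 15.1% of its exonic bases opposite Pdzd11), and Kif22, also called Kid, was called lower in EpiLC (-1.32) and not in nESC (-0.67). Kif22 had 33.5, 36.6 and 32.6 FPKM in EpiLC chromatin, against 86.3, 88.5 and 83.0 FPKM in EpiLC cytoplasm, and 47.2, 43.2 and 39.8 FPKM in nESC chromatin, against 74.2, 63.4 and 70.8 FPKM in nESC cytoplasm. Chromatin was below cytoplasm in all libraries of both states. Kif20a, which delivers the passenger complex to the central spindle, was called lower in EpiLC only (-1.23, against -0.30 in nESC), and 29.3% of its exonic bases lie opposite Cdc23. Kif2c, a microtubule depolymerase, did not pass in either state (0.02 and 0.31).

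Of the 5 spindle and cytokinesis genes, 3 were called higher in EpiLC chromatin and 4 in nESC chromatin, and of the 4 condensin genes 3 were in both states, with none of either group called lower. Aspm, a spindle pole protein needed for neural progenitor divisions, had 53.8, 43.1 and 38.9 FPKM in EpiLC chromatin, against 1.65, 1.96 and 2.90 FPKM in EpiLC cytoplasm. The nESC libraries of Aspm had 56.2, 80.4 and 83.5 FPKM in chromatin, against 1.22, 1.68 and 2.38 FPKM in cytoplasm. The groups did not overlap, and the log2 fold was 4.11 (SE 0.16, adjusted p = 1.9e-10) in EpiLC and 5.04 (SE 0.17, adjusted p = 1.17e-11) in nESC. Anln, which organizes the contractile ring, and Ect2, the exchange factor that activates RhoA there, were called higher in both states, with 2.91 and 2.31 in EpiLC and 3.32 and 2.12 in nESC. Tpx2, the activator of Aurora A on the spindle, was called in nESC only (0.56 in EpiLC and 1.43 in nESC), and Prc1, which bundles the central spindle, in neither (0.69 and 0.74), with 11.1% of its exonic bases opposite Rccd1. Of the condensin genes, Smc4 and Smc2, the ATPases, and Ncapg passed in both states. Smc4 had 188, 102 and 82.4 FPKM in EpiLC chromatin, against 10.9, 12.3 and 12.3 FPKM in EpiLC cytoplasm, and 138, 178 and 169.6 FPKM in nESC chromatin, against 11.4, 10.6 and 10.7 FPKM in nESC cytoplasm. Again EpiLC chromatin library 1 was the highest of its group, and the log2 fold was 3.25 (SE 0.22, adjusted p = 2.2e-08) in EpiLC and 3.83 (SE 0.095, adjusted p = 8.67e-13) in nESC. Smc2 and Ncapg had 2.95 and 2.59 in EpiLC and 3.29 and 3.67 in nESC. Ncapd2, a HEAT-repeat subunit of the same complex, stood apart at -0.43 and -0.19, with 79.8, 88.8 and 83.2 FPKM in EpiLC chromatin, against 107, 118 and 115 FPKM in EpiLC cytoplasm. A small RNA gene, Scarna10, lies on the same strand over 3.78% of the exonic bases of Ncapd2, and its part in these values was not tested.

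**Figure D3:**
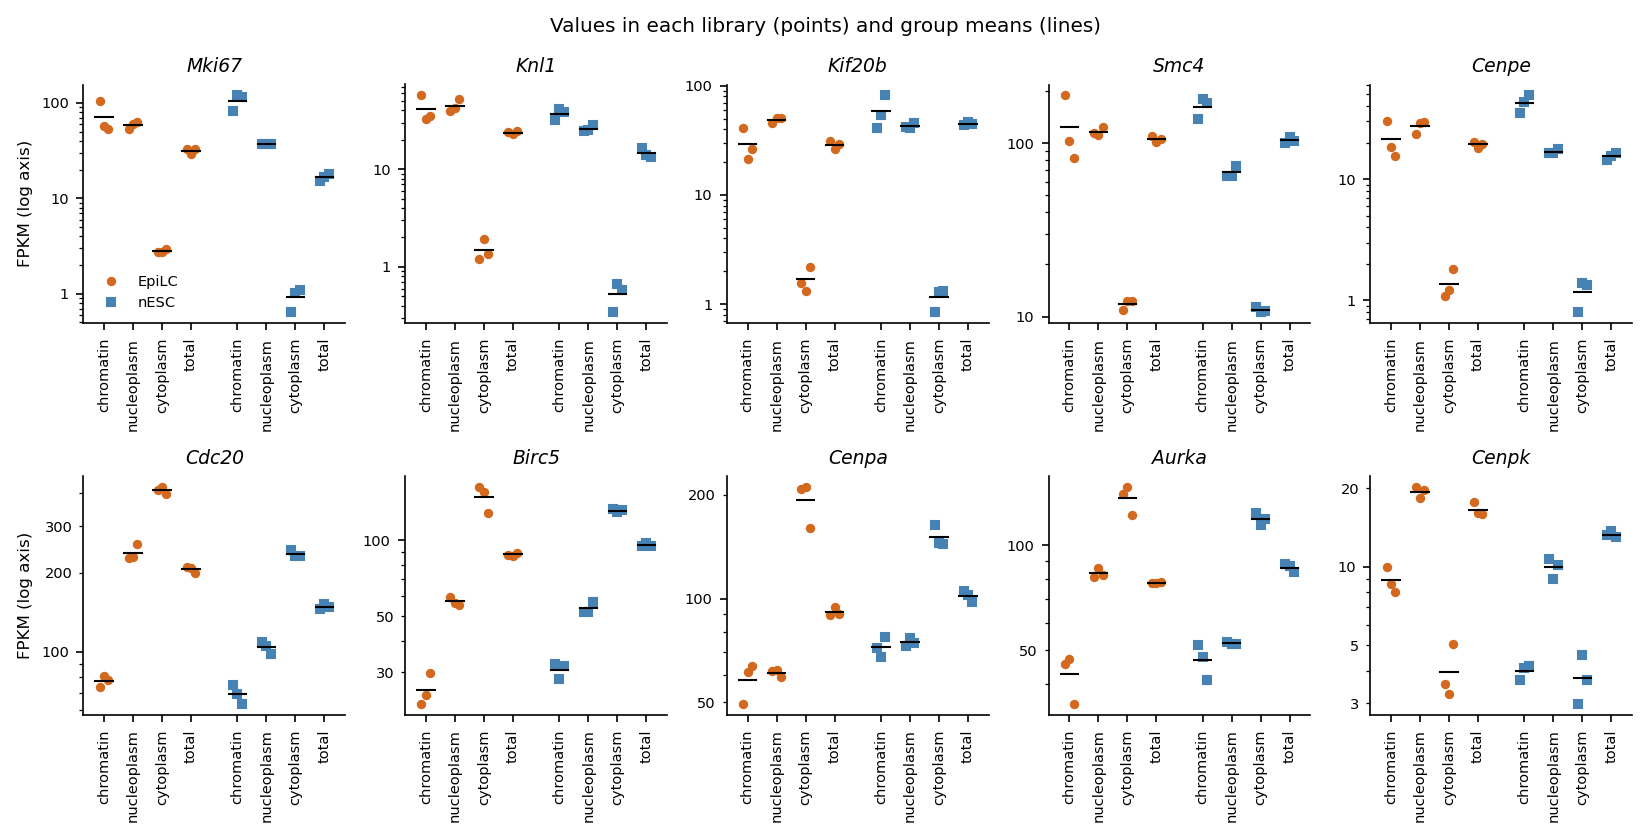
FPKM on a log axis in each library (points, circles for EpiLC and squares for nESC) with group means (lines) in chromatin, nucleoplasm, cytoplasm and total RNA (x axis) for 10 genes. In the upper row the cytoplasm points lie lowest in both states, and in the lower row those of Cdc20, Birc5, Cenpa and Aurka lie highest, while Cenpk is highest in EpiLC nucleoplasm and in nESC total RNA.

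The sides were next set beside the coding sequence. Coding sequence was not used to choose the members, but earlier results of these data were known when the list was drawn up. Relations in members beside those over all genes are therefore a description. Genes called higher in chromatin in EpiLC had a median transcript GC content of 42.5% and those called lower 51.4%, and in nESC the medians were 42.8% and 51.4%. The middle 90 coding bases of the longest coding transcript (GENCODE vM21) are shown for a pair of genes from each side. The pairs had the highest and the lowest nESC folds of the 42 genes. Capitals mark G and C.
Mki67, coding bases 4720 to 4809, chromosome 7: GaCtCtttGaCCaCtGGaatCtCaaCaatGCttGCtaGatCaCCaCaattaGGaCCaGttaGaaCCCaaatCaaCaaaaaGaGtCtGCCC
Knl1, coding bases 3133 to 3222, chromosome 2: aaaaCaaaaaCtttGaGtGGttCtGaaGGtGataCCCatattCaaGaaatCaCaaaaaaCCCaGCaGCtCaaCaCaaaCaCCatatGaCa
Birc5, coding bases 166 to 255, chromosome 11: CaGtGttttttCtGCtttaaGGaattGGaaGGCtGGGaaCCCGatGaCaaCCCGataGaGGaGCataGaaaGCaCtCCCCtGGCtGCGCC
Cdc20, coding bases 703 to 792, chromosome 4: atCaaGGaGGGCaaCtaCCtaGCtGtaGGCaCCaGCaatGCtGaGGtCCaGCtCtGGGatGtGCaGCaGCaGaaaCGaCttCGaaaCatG

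The stretch of Knl1 held 36.7% G or C and that of Mki67 43.3%, while that of Birc5 held 52.2% and that of Cdc20 53.3%. Over whole coding sequences, Mki67 has 9531 coding nucleotides and 40.4% GC at wobble positions (the last base of each codon, GC3), and Knl1 has 6357 and 32.2%. The whole transcript of Mki67 has 46.6% GC, above the 42.8% median of the genes called higher in nESC chromatin. Birc5 has 420 coding nucleotides and 70.0% GC at wobble positions, and Cdc20 has 1497 and 58.9%. Across the 42 genes, the log2 fold of chromatin over cytoplasm went with GC at wobble positions at Pearson's r of -0.84 in EpiLC and -0.77 in nESC (Spearman's rho -0.84 and -0.79). For transcript GC content r was weaker, at -0.75 and -0.65, and for coding GC content it was -0.765 and -0.68. With coding length on a log2 scale r was 0.76 in EpiLC and 0.79 in nESC (rho 0.80 and 0.80), with gene span 0.79 and 0.73, and with the length of the 3' untranslated region 0.12 and 0.06. Over all 11785 and 11541 coding genes tested, r with GC at wobble positions was -0.43 in EpiLC and -0.46 in nESC, and with coding length 0.52 and 0.54. These are descriptions across genes that share the same libraries, and genes are not independent replicates. The exceptions are visible by gene: Cenpk has 32.4% GC at wobble positions but only 918 coding nucleotides and a fold near 0 in nESC, and Ncapd2 is long at 4176 coding nucleotides with 61.6% GC at wobble positions and is not called. As a group, the members have longer coding sequences than the coding genes tested in nESC (median 2690 against 1365 nucleotides), more exons (19 against 9) and less GC at wobble positions (47.4% against 60.4%).

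**Figure D4:**
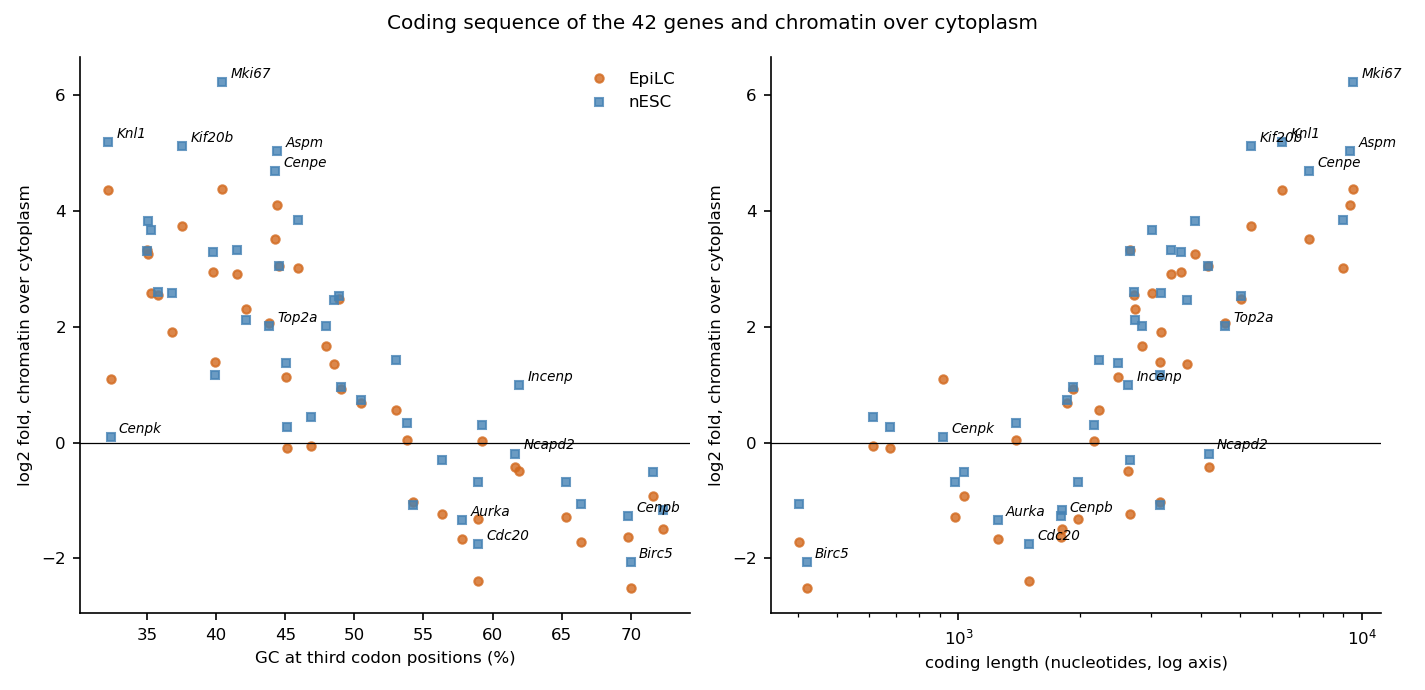
The y axis is the log2 fold of chromatin over cytoplasm of the 42 genes (circles, EpiLC; squares, nESC), against GC at wobble positions in percent (left) and coding length in nucleotides on a log axis (right). The folds run downwards with GC and upwards with length, and Cenpk and Ncapd2 lie off the trend in 1 panel each.

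When each library was corrected for transcript length and GC content, a setting added after the data were seen, 11 members in EpiLC and 16 in nESC were called higher in chromatin and 5 and 4 lower, and the median member stood at 0.45 in EpiLC and 0.68 in nESC, beside -0.13 and -0.11 over all genes. The shares of all genes called under this correction are not given here, so no excess of called members is read from these counts. Under the correction the direction of Kif11 turned, to -0.07 in EpiLC and -0.39 in nESC, as did that of Cenpk, to -0.14 and -1.23, and that of Nuf2, to -0.67 and -0.38. Spc25 turned to 0.50 in EpiLC, and in nESC Mad2l1 turned to -2.33, Aurkb to 0.26 and Kif22 to 0.01.

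Nucleoplasm over cytoplasm uses the same cytoplasm libraries, so its folds are not independent of those above. In EpiLC 25 of 42 members (59.5%) were called higher in nucleoplasm and 3 (7.14%) lower, where 20.1% of all genes were called higher and 19.1% lower (39.2% in all). In nESC 24 of 42 (57.1%) were called higher and 7 (16.7%) lower, where 20.5% were called higher and 19.5% lower (39.9% in all). Members had a median of 1.92 in EpiLC and 1.50 in nESC, beside -0.15 and -0.08 over all genes. The 24 genes called higher in nESC were all called higher in EpiLC, which added Prc1. Mki67, Knl1 and Kif20b had the 3 largest folds in both states, as 4.16, 4.50 and 4.51 in EpiLC and 4.75, 4.70 and 4.73 in nESC. Kif20b had 45.6, 50.9 and 50.2 FPKM in EpiLC nucleoplasm, against 1.58, 1.31 and 2.21 FPKM in EpiLC cytoplasm, and 41.9, 41.0 and 45.8 FPKM in nESC nucleoplasm, against 0.845, 1.30 and 1.32 FPKM in nESC cytoplasm. The nucleoplasm libraries of Kif20b were close together and far above cytoplasm, with an SE of the log2 fold of 0.20 in EpiLC and 0.19 in nESC. Cenpa, Cenpb and Birc5 were called lower in both states. Birc5 had 59.8, 56.7 and 55.3 FPKM in EpiLC nucleoplasm, against 162, 155 and 128 FPKM in EpiLC cytoplasm, a log2 fold of -1.36 (SE 0.11, adjusted p = 3.74e-07). Cdc20, Bub3, Plk1 and Aurka were called lower in nESC, at -1.17, -1.20, -1.04 and -1.18, and not in EpiLC, at -0.78, -0.77, -0.43 and -0.71. Plk1 lost the nESC call at -0.98 without cytoplasm library 3. As before, no member was called lower after scaling to one sum. With the length and GC correction 2 members were called lower in nESC, without Cdc20 (-0.36), Bub3 (-0.91), Plk1 (-0.39) and Aurka (-0.65), and Birc5 lost its EpiLC call at -0.27. Shares of all genes called under these 2 settings are not given here, so the counts show no excess or lack of members.

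The members stood differently in the states for chromatin over nucleoplasm. In EpiLC 1 of 42 members (2.38%) was called higher in chromatin and 10 (23.8%) lower, where 16% of all genes were called higher and 16.7% lower (32.7% in all). In nESC 6 of 42 (14.3%) were called higher and 2 (4.76%) lower, where 17.4% were called higher and 17.3% lower (34.7% in all). The median member stood at a log2 fold of -0.52 in EpiLC and 0.34 in nESC, beside -0.07 and 0.02 over all genes. Scaling to one sum moved the median of all genes to 0.69 in both states and that of the members to 0.28 in EpiLC and 1.04 in nESC, so members stayed below the median gene in EpiLC and above it in nESC. Kif15 was the single gene called higher in both states. It had 230.1, 179 and 151 FPKM in EpiLC chromatin, against 79.4, 89.7 and 92.1 FPKM in EpiLC nucleoplasm, and 95.1, 115 and 129 FPKM in nESC chromatin, against 53.7, 53.7 and 57.3 FPKM in nESC nucleoplasm. Its chromatin libraries were above its nucleoplasm libraries throughout, with log2 folds of 1.08 (SE 0.22, adjusted p = 0.000838) in EpiLC and 1.02 (SE 0.11, adjusted p = 2.98e-06) in nESC, and without EpiLC chromatin library 1 the EpiLC fold was 0.92 and not called, as was the nESC fold of 0.92 without nESC chromatin library 3.

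Mki67, Cenpe, Aspm, Smc4 and Ncapg were called higher in nESC chromatin and not in EpiLC chromatin. These calls depend on the processing. With the correction for transcript length and GC, 0 members were called higher in either state, where Ncapg stood at 0.88 in nESC and Kif15 at 0.97 in EpiLC and 0.74 in nESC. With one sum 5 members were called higher in EpiLC and 22 in nESC, and 0 lower in either. For both settings the shares of all genes called are not given here, so these counts show no excess or lack of members. Ncapg had 65.0, 38.0 and 41.0 FPKM in EpiLC chromatin, against 64.5, 62.9 and 74.1 FPKM in EpiLC nucleoplasm, where library 1 of chromatin reached the nucleoplasm range and libraries 2 and 3 lay below it, at a log2 fold of -0.52. In nESC its values were 78.3, 94.0 and 94.2 FPKM in chromatin, against 37.2, 36.4 and 39.9 FPKM in nucleoplasm, without overlap, at 1.22 (SE 0.12, adjusted p = 1.11e-06). Exons of Ncapg share 13.4% of their bases with Lcorl on the opposite strand. On the other side, Cenpk and Kif11 were called lower in chromatin in both states, at -1.09 and -1.52 in EpiLC and -1.23 and -1.12 in nESC, where Kif11 was -0.87 and not called without chromatin library 1. Ndc80, Ttk, Cdc20, Birc5, Plk1, Kif20a, Kif22 and Tpx2 were called lower in EpiLC alone. Kif20a had 29.0, 27.7 and 22.7 FPKM in EpiLC chromatin, against 83.4, 83.0 and 83.8 FPKM in EpiLC nucleoplasm, and 34.5, 36.1 and 33.5 FPKM in nESC chromatin, against 41.4, 39.96 and 40.5 FPKM in nESC nucleoplasm. Its fractions were apart in both states but further apart in EpiLC, with log2 folds of -1.65 (SE 0.091, adjusted p = 1.57e-08) in EpiLC and -0.23 (SE 0.059, adjusted p = 0.00358) in nESC. Ttk and Plk1 were at -1.15 and -1.07 and lost the call without EpiLC chromatin library 3.

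**Figure D5:**
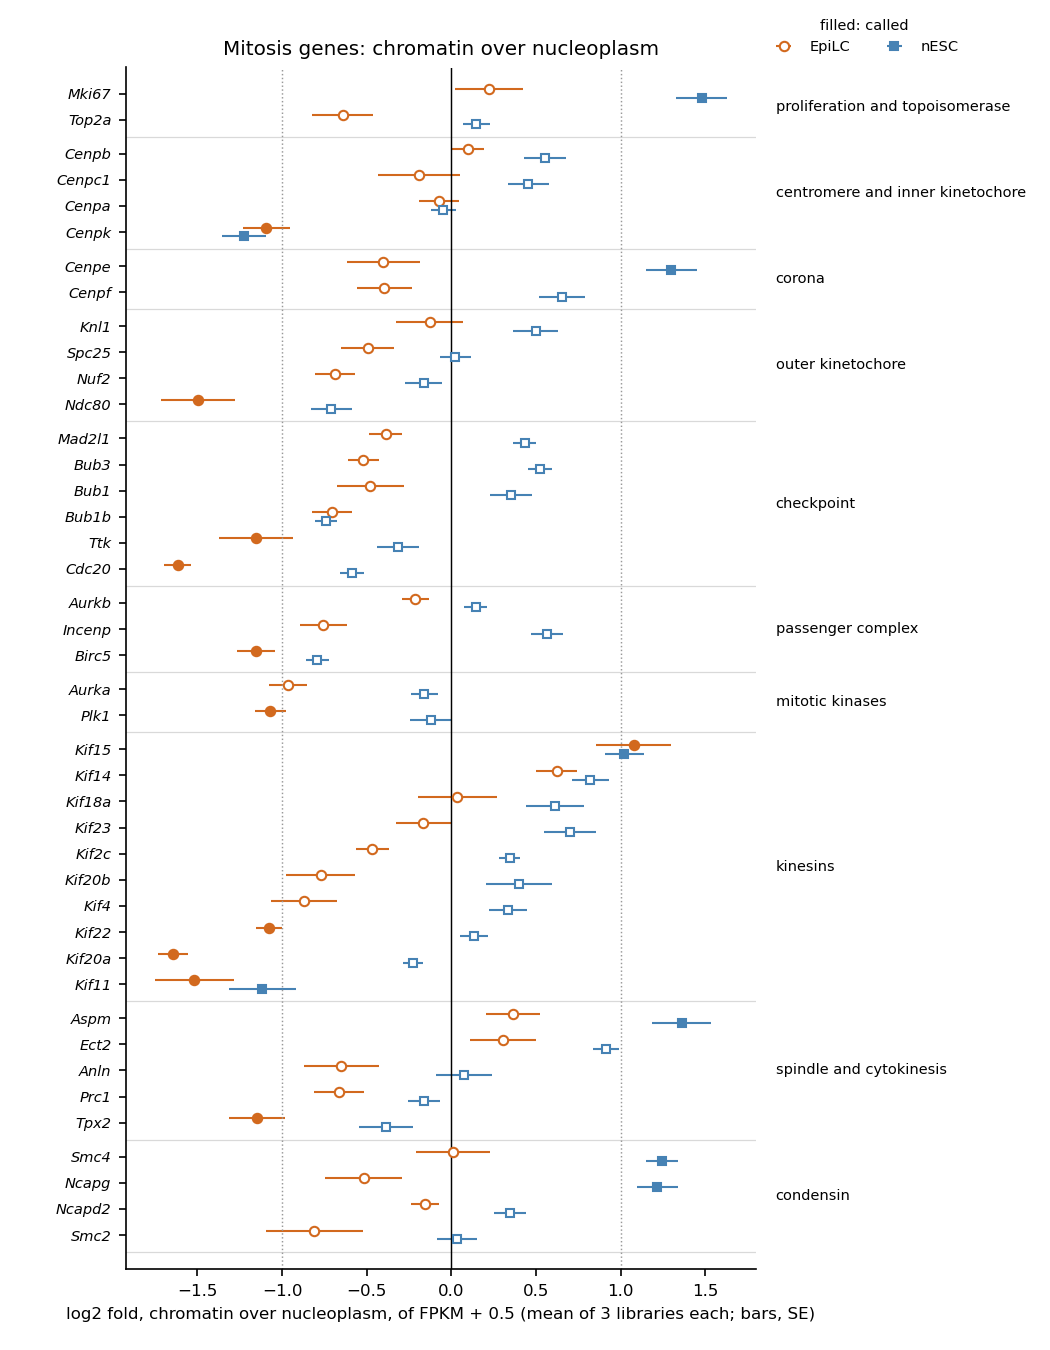
The x axis is the log2 fold of chromatin over nucleoplasm on FPKM + 0.5 with its SE for each gene (y axis) by role, circles for EpiLC and squares for nESC, filled where called. EpiLC points lie left of nESC points for all genes but Bub1b, Cenpk and Kif15, and scaling to one sum moves the median of all genes to 0.69 in both states.

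The difference between the states was tested directly as a difference of fold differences with every library centred on its median. For chromatin over nucleoplasm, 12 of 42 members (28.6%) were called lower in EpiLC and none higher, where 3.91% of 11704 genes were called lower and 4.2% higher (8.11% in all). At an unadjusted p under 0.05, 35 members were lower and 0 higher in this limma test, where 27.3% of all genes were lower and 18.8% higher, and the median state difference was -0.77, beside -0.07 over all genes. The largest were those of Ncapg, -1.71 (SE 0.26, adjusted p = 4.06e-05), and Cenpe, -1.67 (SE 0.26, adjusted p = 5.93e-05). The most precise was that of Kif20a, -1.39 (SE 0.097, adjusted p = 7.82e-09). The others, in order of size, were Incenp, Mki67 (-1.23), Smc4 (-1.20), Kif22 (-1.19), Kif4 (-1.18), Kif20b (-1.14), Cenpf (-1.02), Bub3 (-1.01) and Cdc20 (-1.001). They span condensin, corona, passenger complex, kinesins and checkpoint. When each library was left out in turn, 7 of the 12 stayed called: Ncapg, Cenpe, Kif20a, Incenp, Mki67, Kif22 and Kif4. The call of Smc4 was lost without EpiLC chromatin library 3 (-0.97), and that of Kif20b without nESC chromatin library 3 (-0.88) or EpiLC chromatin library 2 (-0.93). Cenpf, Bub3 and Cdc20 lay at the fold threshold and lost it by a small margin (at the furthest -0.89 for Cenpf, -0.95 for Bub3 and -0.94 for Cdc20), Cenpf without nESC chromatin library 2 or 3, nESC nucleoplasm library 1, EpiLC chromatin library 2 or 3 or EpiLC nucleoplasm library 2, Bub3 without nESC chromatin library 1 or 2, EpiLC chromatin library 3 or EpiLC nucleoplasm library 1, and Cdc20 without nESC chromatin library 1 or 2, nESC nucleoplasm library 3, EpiLC chromatin library 1 or EpiLC nucleoplasm library 3. Without EpiLC chromatin library 3 and EpiLC cytoplasm library 3 together, 9 were called. With the correction for transcript length and GC 7 were called, and Smc4 and Bub3 (-0.99 each), Mki67 (-0.95), Kif20b (-0.85) and Cenpf (-0.67) were not. Shares of all genes called under these alternatives are not given here, so no excess of members is read from the counts. Values behind the Incenp difference, -1.29 (SE 0.17, adjusted p = 6.68e-06), were 38.5, 43.0 and 27.0 FPKM in EpiLC chromatin, against 60.4, 62.8 and 57.9 FPKM in EpiLC nucleoplasm, and 52.1, 48.9 and 40.1 FPKM in nESC chromatin, against 30.4, 31.4 and 32.7 FPKM in nESC nucleoplasm. Chromatin was below nucleoplasm in EpiLC and above it in nESC in every library.

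For chromatin over cytoplasm, 5 members (11.9%) were called lower in EpiLC and 1 (2.38%) higher, where 4.41% of all genes were called lower and 5.25% higher (9.65% in all). Mki67, Incenp and Kif20b, at -1.75 (SE 0.26, adjusted p = 2.4e-05), -1.38 (SE 0.17, adjusted p = 2.71e-06) and -1.29 (SE 0.29, adjusted p = 0.00173), stayed called when each library was left out in turn. Cenpe and Kif4, at -1.08 and -1.003, lost the call without nESC chromatin library 3, nESC cytoplasm library 1, EpiLC chromatin library 3 or EpiLC cytoplasm library 3, with values of -0.97 to -0.90 for Cenpe and -0.94 to -0.78 for Kif4, and 3 members were then called lower. Kif4 also lost it without nESC chromatin library 2 or nESC cytoplasm library 3. Cenpk, the single gene called higher at 1.09 (SE 0.18, adjusted p = 8.04e-05), lost the call at 0.97 without nESC cytoplasm library 2 and at 0.99 without EpiLC cytoplasm library 2. Nor was it called with one sum (0.95), with no filter or with no centring of libraries, where it lay just under the fold threshold. With the length and GC correction 3 members were called lower, without Cenpe (-0.91) and Kif4 (-0.86). Shares of all genes called under the alternatives are not given here, so no excess of members is read from these counts. For nucleoplasm over cytoplasm, limma called 0 members in either direction, where 1.48% of all genes were called lower and 1.07% higher (2.55% in all). At an unadjusted p under 0.05, 22 members were higher and 1 lower in EpiLC, where 19.1% of all genes were higher and 13.2% lower. The members were all short of the fold or of the adjusted threshold, and the median was 0.42, beside 0.06. Cenpk was called higher at 1.06 without nESC cytoplasm library 1, and 1 member was called higher with no filter. Without EpiLC cytoplasm library 3, Top2a, Cenpk, Ndc80, Kif11 and Ect2 were called higher in EpiLC, at 1.01 to 1.14.

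Cytoplasm over total RNA sets the cytoplasmic level of each message against its level in whole cells. In EpiLC 2 of 42 members (4.76%) were called higher in cytoplasm and 23 (54.8%) lower, where 12.7% of all genes were called higher and 17.6% lower (30.3% in all). In nESC 1 (2.38%) was called higher and 26 (61.9%) lower, where 16% were called higher and 19.4% lower (35.4% in all). Members had a median of -1.52 in EpiLC and -1.75 in nESC, beside 0.16 and 0.11 over all genes. All 23 genes called lower in EpiLC were called lower in nESC, which added Nuf2, Tpx2 and Prc1. The lowest was Kif20b, with 1.58, 1.31 and 2.21 FPKM in EpiLC cytoplasm, against 31.3, 26.2 and 29.4 FPKM in EpiLC total RNA, and 0.845, 1.30 and 1.32 FPKM in nESC cytoplasm, against 43.2, 46.5 and 44.9 FPKM in nESC total RNA. The groups were far apart, with a log2 fold of -3.76 (SE 0.20, adjusted p = 1.4e-07) in EpiLC and -4.79 (SE 0.19, adjusted p = 6.19e-10) in nESC. Cenpa and Cenpb were called higher in EpiLC cytoplasm, at 1.07 and 1.16, and Plk1 in nESC cytoplasm, at 1.16. Cenpa lost its call without EpiLC cytoplasm library 2. Plk1 had 68.3, 64.9 and 75.6 FPKM in nESC cytoplasm, against 30.5, 31.1 and 30.9 FPKM in nESC total RNA. With the length and GC correction these calls were lost, at 0.83 for Cenpa, 0.95 for Cenpb and 0.43 for Plk1. Under this correction 1 member other than these was called higher in EpiLC cytoplasm, and 0 in nESC cytoplasm. Shares of all genes called under it are not given here. With one sum no member was called higher in cytoplasm and the median of all genes moved to -0.72 in both states. Across the 42 genes, this fold went with GC at wobble positions at r of 0.90 in EpiLC and 0.89 in nESC (rho 0.91 and 0.88), beside 0.62 and 0.68 over all coding genes tested. For transcript GC content r was 0.83 in both states, beside 0.62 in EpiLC and 0.70 in nESC over all coding genes tested.

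Other genes of the same processes were read from 6 lists for chromatin over cytoplasm, where, as above, 29.1% of all genes were called higher and 28.4% lower in EpiLC and 31.8% and 29.7% in nESC. Of 31 other kinetochore genes, 8 were called higher and 10 lower in EpiLC chromatin, against 8 and 7 in nESC. The 2 with the highest mean FPKM of each list are named. Spc24, the partner of Spc25 in the NDC80 complex, had log2 folds of -3.15 in EpiLC and -2.86 in nESC, and Zwint, a KNL1 partner, -1.20 and -1.08. Of 17 cohesin and condensin genes, 10 were called higher and 2 lower in both states. Stag2 and Pds5a, a subunit and a regulator of cohesin, had 3.51 and 3.14 in EpiLC and 3.58 and 3.59 in nESC. Of 27 spindle and centrosome genes, 14 were called higher and 5 lower in EpiLC, and 14 and 4 in nESC. Among them Dlgap5, a spindle protein stabilizing microtubules, was at 1.16 and 1.59, and Tacc3, which crosslinks kinetochore fibres, at -1.31 and -0.61.

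Of 18 genes of the APC/C and its partners, 2 were called higher and 10 (55.6%) lower in EpiLC, and 2 and 8 (44.4%) in nESC. Ube2s, its chain-extending E2 enzyme, was at -2.73 and -3.07, and the subunit Anapc5 at -1.42 in EpiLC and 0.00 in nESC. Of 16 genes of G2/M control, 2 (12.5%) were called higher and 4 (25%) lower in EpiLC, and 4 (25%) and 2 (12.5%) in nESC, all below the shares over all genes, with Cdk1, the mitotic kinase, at -2.77 and -2.02 and its cyclin Ccnb1 at -0.49 and 0.13. Of 30 replication genes, 2 were called higher and 17 (56.7%) lower in EpiLC, and 4 and 11 (36.7%) in nESC, with Mcm7, a subunit of the replicative helicase, at -0.74 and 0.04 and Pcna, the sliding clamp, at -1.09 and -0.82. The list medians were -0.24, 2.21, 1.03, -1.22, -0.49 and -1.21 in EpiLC for other kinetochore, cohesin and condensin, spindle and centrosome, APC/C, G2/M control and replication genes, beside 1.11 for the 42 genes. In nESC they were 0.22, 2.69, 1.39, -0.14, -0.12 and -0.79, beside 1.27. With one sum, Spc24, Ube2s and Cdk1 kept a negative fold in both states, and Zwint, Tacc3, Pcna and, in EpiLC, Anapc5, Mcm7 and Ccnb1 (1.35) turned positive.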

How the data were processed

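The deposited values are FPKM, which the authors made with TopHat2 alignment and Cuffnorm. The submitters' processing notes name mm10 and GRCm38 as build. For versions, gene annotation, library normalization and use of strand, nothing is given in the sources used here. Each state has its own table, normalized separately, so tests were run within a table, and only differences of folds were tested across tables after centring each library on its median. limma 3.58.1 in R 4.3.3 was fitted to log2(FPKM + 0.5) over all genes averaging 1 FPKM or more in their table, with the 4 kinds of library in 1 fit and an intensity trend, and Benjamini-Hochberg adjustment over all genes tested. Folds are on this scale, which understates changes of low genes. Scripts were tested on simulated data. Transcript features came from GENCODE vM21. Members and gene lists were chosen with earlier results of these data known. For each role, members with the largest folds or with calls that differ are given by library, and the 2 genes of highest mean FPKM were named from each further list. Alternatives were another pseudocount, filter or scaling, the replicate block, leaving out libraries and a length and GC correction.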

Additional observations from a re-analysis of the deposited data

Results flagged for a closer look

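The following folds differed between the states by limma's test of the difference, with every library centred on its median and p-values adjusted over 11704 genes. For chromatin over cytoplasm, the log2 fold in EpiLC minus that in nESC was past the threshold for Mki67 at -1.75, Cenpk at 1.09, Cenpe at -1.08, Incenp at -1.38, Kif4 at -1.003 and Kif20b at -1.29. For chromatin over nucleoplasm it was past the threshold for Mki67 at -1.23, Cenpe at -1.67, Cenpf at -1.02, Bub3 at -1.01, Cdc20 at -1.001, Incenp at -1.29, Kif4 at -1.18, Kif20a at -1.39, Kif20b at -1.14, Kif22 at -1.19, Smc4 at -1.20 and Ncapg at -1.71. Both comparisons use the same chromatin libraries. In EpiLC chromatin, library 1 was the highest of its group for most of these genes, and not for Cdc20, Incenp and Kif22. For Bub3 and Kif20a it was close to library 2. The share of all FPKM taken by the 42 genes was 0.634%, 0.545% and 0.409% in EpiLC chromatin libraries 1, 2 and 3. The part of single libraries is given by leaving each out. Cenpk moved up for chromatin over cytoplasm, with 10.0035, 8.59 and 8.03 FPKM in EpiLC chromatin, against 3.68, 4.07 and 4.18 FPKM in nESC chromatin, and cytoplasm libraries of the states that overlap. Its nucleoplasm was higher in EpiLC too, with 20.3, 18.3 and 19.7 FPKM, against 10.7, 9.01 and 10.2 FPKM in nESC. The state difference of Cenpk for chromatin over nucleoplasm was not called. These levels come from tables normalized separately.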

How the results depend on the processing

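Under the replicate block, with the replicate number added to the fit, no count of called members changed (22 higher and 10 lower for chromatin over cytoplasm in EpiLC, 22 and 7 in nESC). The labels do not say that a number marks a shared culture, and the correlation of deviations between same-numbered libraries ran between -0.219 and 0.177, so the numbers were not taken to pair the libraries. Counts of members under the alternatives are given without the shares of all genes called, so no excess is read from them. Scaling every library to one sum moved the most. Chromatin over cytoplasm then gave 0 members lower in EpiLC and 35 higher and 0 lower in nESC, nucleoplasm over cytoplasm 0 lower in EpiLC and 0 lower in nESC, chromatin over nucleoplasm 5 higher and 0 lower in EpiLC and 22 higher and 0 lower in nESC, and cytoplasm over total 0 higher in both. The state difference of chromatin over cytoplasm gave 0 higher, and 29 members stood above 0 in total RNA between the states. With the correction for transcript length and GC, chromatin over cytoplasm gave 11 higher and 5 lower in EpiLC and 4 lower in nESC, nucleoplasm over cytoplasm 2 lower in nESC, chromatin over nucleoplasm 0 higher in EpiLC and 0 in nESC, and cytoplasm over total 1 higher in EpiLC and 0 in nESC. The state difference gave 3 lower for chromatin over cytoplasm and 7 lower for chromatin over nucleoplasm. Centring libraries on the median gave 2 members higher for cytoplasm over total in nESC. With no filter the state difference of chromatin over cytoplasm gave 0 higher and that of nucleoplasm over cytoplasm 1 higher, and with no centring chromatin over cytoplasm gave 0 higher. Without both EpiLC libraries 3 (chromatin and cytoplasm) the state difference gave 3 lower for chromatin over cytoplasm and 5 higher for nucleoplasm over cytoplasm. Leaving out 1 library at a time moved the members lower for chromatin over nucleoplasm in nESC to 1 to 2, those higher in EpiLC to 0 to 1, those higher for cytoplasm over total in EpiLC to 1 to 3, and the state difference to 0 to 1 higher and 3 to 7 lower for chromatin over cytoplasm and 0 to 5 higher for nucleoplasm over cytoplasm. Of 158 folds named for single genes, 48 kept their direction and call under every setting and 53 changed sign under some setting, 16 of them under a setting other than one sum. With one sum, EpiLC chromatin over cytoplasm turned to 0.41 for Anapc5, 0.15 for Aurka, 0.89 for Aurkb, 0.81 for Bub1b, 0.54 for Bub3, 1.35 for Ccnb1, 0.11 for Cenpa, 0.15 for Cenpb, 1.34 for Incenp, 0.59 for Kif20a, 0.51 for Kif22, 1.76 for Mad2l1, 1.10 for Mcm7, 1.40 for Ncapd2, 0.75 for Pcna, 0.33 for Plk1, 1.71 for Spc25, 0.52 for Tacc3 and 0.62 for Zwint, EpiLC chromatin over nucleoplasm turned to 0.28 for Ncapg, EpiLC nucleoplasm over cytoplasm turned to 0.32 for Aurka, 0.26 for Bub3, 0.25 for Cdc20 and 0.60 for Plk1, nESC chromatin over cytoplasm turned to 0.62 for Aurka, 1.44 for Aurkb, 0.87 for Bub1b, 1.28 for Bub3, 0.21 for Cdc20, 0.91 for Cenpa, 0.66 for Cenpb, 1.65 for Kif20a, 1.28 for Kif22, 1.77 for Ncapd2, 1.15 for Pcna, 0.79 for Plk1, 1.35 for Tacc3 and 0.89 for Zwint, nESC chromatin over nucleoplasm turned to 0.47 for Kif20a and nESC nucleoplasm over cytoplasm turned to 0.08 for Aurka, 0.05 for Bub3, 0.09 for Cdc20 and 0.21 for Plk1. With the length and GC correction, EpiLC chromatin over cytoplasm turned to -0.14 for Cenpk, -0.07 for Kif11, -0.67 for Nuf2 and 0.50 for Spc25, EpiLC nucleoplasm over cytoplasm turned to 0.07 for Cdc20 and 0.24 for Plk1 and nESC chromatin over cytoplasm turned to 0.26 for Aurkb, -0.27 for Ccnb1, -1.23 for Cenpk, -0.39 for Kif11, 0.01 for Kif22, -2.33 for Mad2l1 and -0.38 for Nuf2. With centring, EpiLC chromatin over cytoplasm turned to -0.18 for Kif2c and -0.16 for Nuf2 and nESC chromatin over cytoplasm turned to -0.13 for Ccnb1, -0.17 for Cenpk and -0.22 for Mcm7. Without both EpiLC libraries 3, EpiLC chromatin over cytoplasm turned to 0.10 for Mad2l1 and 0.08 for Spc25. Leaving out 1 library at a time also changed the sign of small folds, with ranges for Kif2c from -0.06 to 0.14 in EpiLC chromatin over cytoplasm, Mad2l1 from -0.12 to 0.04 in EpiLC chromatin over cytoplasm, Nuf2 from -0.04 to 0.17 in EpiLC chromatin over cytoplasm, Spc25 from -0.30 to 0.03 in EpiLC chromatin over cytoplasm, Cenpk from -0.04 to 0.23 in nESC chromatin over cytoplasm and Mcm7 from -0.15 to 0.15 in nESC chromatin over cytoplasm. The cause of these changes was not tested. Depth limits the cytoplasm values of the lowest members, with 32 estimated fragments for Knl1 in nESC cytoplasm library 1.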
